A study of Mus musculus with 6 samples.

Results

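Genes for the proteins of the mitochondrial ribosome were followed in G1E-ER-GATA-1 cells after SetD8, a histone H4 lysine methyltransferase, had been depleted with siRNA. The members were all genes whose array probes carry a name that starts with Mrpl or Mrps followed by a number. The rule found 76 genes out of 22229 genes on the array, 47 of the large subunit (Mrpl) and 29 of the small subunit (Mrps), read by 106 probes. All 76 were detected and tested, among 14425 genes in all.

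The mitochondrial ribosome translates the few messenger RNAs made from mitochondrial DNA, which encode membrane subunits of the respiratory chain and of ATP synthase. Its ribosomal RNAs are transcribed inside the organelle, but all of its proteins are encoded by nuclear genes, made in the cytosol and imported, so the nucleus supplies the large subunit, which joins amino acids, and the small subunit, which decodes the messenger RNA. Erythroid precursors need mitochondria for haem synthesis and discard them at the end of maturation. Nuclear respiratory factor 1 (NRF1), the ETS factor GABP and YY1 are known to bind promoters of many such genes.

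The study compared 3 arrays of cells given SetD8-specific siRNA with 3 arrays of cells given a non-targeting control siRNA. G1E-ER-GATA-1 cells are Gata1-null mouse erythroid progenitors to which a GATA-1 and oestrogen receptor fusion protein was returned, so all 6 arrays come from 1 engineered line in which β-estradiol switches the factor on. In both groups siRNA was introduced at 0 h and again at 24 h, β-estradiol was added at 24 h, and total RNA was taken at 48 h. Nothing in the labels says that the replicates were separate cultures, so p-values measure the spread between these RNA samples, which may be technical.

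Each RNA was labelled with Cy3 and hybridised alone to an Agilent array, and a value is a spot's brightness on a log2 scale. A probe was detected on an array where the scanner software called its spots well above background. Of the members' spots, 98.5% to 99.2% were detected on each SetD8 array and likewise 98.5% to 99.2% on each control array. Over all spots that are not controls, 60.3% to 68.6% were detected on the SetD8 arrays and 40.2% to 82.5% on the control arrays, with control 2 lowest and control 3 highest. The 10 erythroid markers on the array, among them the globin genes, were all detected, while of 8 granulocyte and macrophage markers 4 were detected (Csf1r, Elane, Adgre1 and Itgam) and Lyz2, Mpo, S100a8 and S100a9 were not well above background. Precision is limited by the number of arrays.

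Because the control arrays differed in background, the results over the whole set are given under 2 scalings. In the first, each array's log2 processed signal was set against its own 75th percentile. In the second, the local background was removed with the normexp model and the arrays were quantile-normalized, which gives all arrays the same distribution of values. Differences are log2 values, SetD8 minus control siRNA, with the standard error of limma's moderated test, and p-values were adjusted by the Benjamini-Hochberg method over all 14425 genes.

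The targeted gene, listed as Kmt5a in the reference, had quantile-normalized log2 signals of 9.58, 9.26 and 9.24 on the SetD8 arrays, against 11.49, 11.57 and 11.24 on the control arrays. The groups did not overlap, and the gene fell by 2.07 ± 0.15 (SE, n = 3 each; limma adjusted p = 0.00847), 4.20-fold lower. Its difference was −2.24 ± 0.51 under 75th percentile scaling (limma adjusted p = 0.675).

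The letters below show what was read for members on which the results turn. The first pair are the probes of the small subunit genes with the lowest differences. The next 3 are probes of Mrpl47, of which the 5′-most differed in sign from the others. They lie on the minus strand of chromosomes 9 and 3 in build mm9, per the file headers, and whether a probe lies in coding sequence or a UTR was not annotated here.
Mrps22 (chr9:98489251-98489310): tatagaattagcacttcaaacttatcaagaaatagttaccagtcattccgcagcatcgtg
Mrps28 (chr3:8802222-8802281): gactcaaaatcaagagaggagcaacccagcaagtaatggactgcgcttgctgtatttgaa
Mrpl47, 5′-most probe (chr3:32635967-32636026): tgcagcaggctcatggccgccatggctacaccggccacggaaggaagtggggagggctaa
Mrpl47, next probe (chr3:32633037-32633096): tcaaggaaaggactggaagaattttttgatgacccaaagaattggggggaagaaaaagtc
Mrpl47, brightest probe (chr3:32629104-32630111, across a gap in the genome): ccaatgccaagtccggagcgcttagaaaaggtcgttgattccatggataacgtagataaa

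Promoters are shown for the members with the lowest and the highest difference, as letters from RefSeq (build GRCm38.p6) covering 250 bases before to 50 bases after the gene start. Capitals mark matches to CCGGAAG, a core bound by ETS factors such as GABP, or to ATGGCGG, a core bound by YY1.
Mrps22 (chr9:98601630-98601929, minus strand): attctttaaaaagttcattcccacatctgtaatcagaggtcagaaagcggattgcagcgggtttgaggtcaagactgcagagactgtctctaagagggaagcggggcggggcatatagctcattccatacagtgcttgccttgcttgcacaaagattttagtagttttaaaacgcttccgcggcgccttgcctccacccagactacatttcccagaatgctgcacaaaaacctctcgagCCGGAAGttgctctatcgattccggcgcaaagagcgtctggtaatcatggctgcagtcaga
Mrps18a (chr17:46110754-46111053, plus strand): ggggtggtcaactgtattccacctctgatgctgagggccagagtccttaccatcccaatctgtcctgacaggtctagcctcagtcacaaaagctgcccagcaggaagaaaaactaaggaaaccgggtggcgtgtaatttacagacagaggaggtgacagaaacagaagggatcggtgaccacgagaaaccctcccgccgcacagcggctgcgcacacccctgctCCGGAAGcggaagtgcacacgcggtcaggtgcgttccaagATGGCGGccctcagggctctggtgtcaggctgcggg
The lowest member holds 1 ETS match, and the highest holds 1 ETS and 1 YY1 match. These letters are a description of the windows and not evidence of binding.

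No mitochondrial ribosomal protein gene passed an adjusted p of 0.05 in either direction. After quantile normalization 0 of 76 were called, where 1.7% of all genes tested were called (1.46% higher and 0.236% lower). In limma, 14 members had an unadjusted p under 0.05 with a lower signal and 3 with a higher signal, 17 of 76, where 15.8% of all genes had one (6.42% lower and 9.37% higher). Under 75th percentile scaling 0 of 76 were called and 0 had an unadjusted p under 0.05, where 0.0% and 3.09% of all genes did.

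The members are bright genes, so they are also set beside the 2443 genes (members included) whose mean quantile-normalized signal lay between the lower and upper quartiles of the members. Of these, 3.64% were called and 29.9% had an unadjusted p under 0.05 (14.2% lower and 15.7% higher). The signal range under 75th percentile scaling held 2363 genes, of which 0.0% were called and 1.82% had an unadjusted p under 0.05.

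The median difference over the 76 members was −0.10 after quantile normalization, against 0.03 over all genes and −0.01 over the genes of the same signal range. The difference was below 0 for 50 of 76 members, where it was below 0 for 45.0% of all genes and 51.9% of the signal range. The SD of the differences was 0.20 across members, against 0.33 across all genes, with extremes of −0.52 and 0.34. For 59 of 76 members the 95% interval lay within 1.5-fold of no change, where it did for 42.9% of all genes and 58.5% of the signal range, so for the remaining 17 a difference past 1.5-fold lay within the interval.

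Under 75th percentile scaling the median difference was −0.24, against 0.05 over all genes and −0.17 over the signal range, and 70 of 76 members were below 0 (46.7% of all genes, 68.6% of the signal range). That sign did not hold in every subset of the arrays. The members' median turned to 0.03 with the slide as a block, where that of all genes was 0.05, and to 0.07 without control 2, where that of all genes was 0.06. Between the arrays of slide 3 it was 0.52 for the members and 0.38 for all genes, a difference of 0.14. Without control 3 all 76 members were below 0. Their median relative to all genes was then −0.41, where the median of all genes was −0.18. No member's interval lay within 1.5-fold of no change under this scaling, where 0.0% of all genes and 0.0% of the signal range did. The median SE was 0.44 over the members and 0.45 over all genes, against 0.12 over the members after quantile normalization.

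The members stood at different heights on the control arrays. Relative to each gene's mean over the 6 arrays, the median member stood at −0.16, −0.13 and −0.08 on the SetD8 arrays, against 0.21, 0.76 and −0.61 on the control arrays under 75th percentile scaling. The control arrays lay on both sides of all SetD8 arrays. Genes of the same signal range moved with them, at −0.12, −0.12 and −0.01 on the SetD8 arrays and 0.19, 0.70 and −0.63 on the control arrays. Control 2, the array with the fewest detected spots, was alone on its slide and was scanned on another day than all other arrays. The part of the slide, of the scan day or of the background in the members' values cannot be told apart there.

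After quantile normalization the median member stood at −0.03, −0.01 and −0.09 on the SetD8 arrays, against 0.05, 0.07 and 0.02 on the control arrays. All SetD8 medians were below all control medians. The same order was seen in the genes of the signal range, over a smaller span, between −0.0095 and −0.00067 on the SetD8 arrays and between 0.0023 and 0.018 on the control arrays. Slide 1 held SetD8 1, SetD8 2 and control 1, and within it the members' median difference was −0.05, with 48 of 76 below 0. Slide 3 held SetD8 3 and control 3, and within it the median was −0.11, with 52 below 0.

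**Figure D1:**
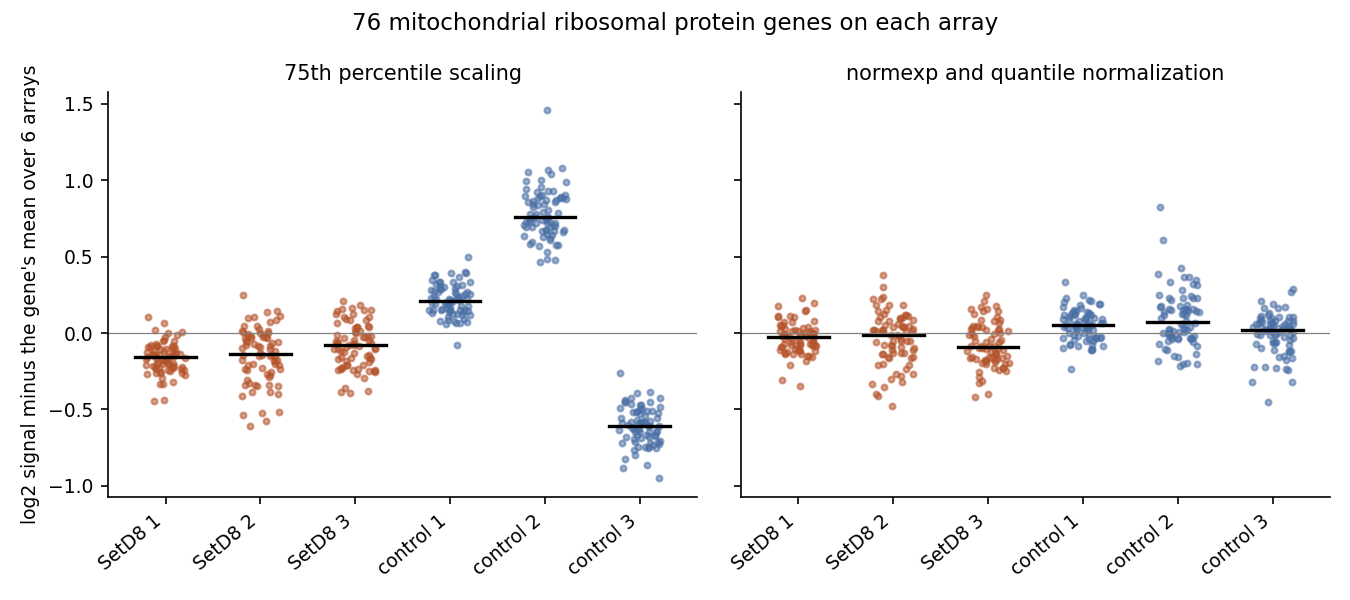
Each point is 1 of the 76 members on 1 array, as its log2 signal minus the gene's own mean over the 6 arrays, with SetD8 arrays left and control arrays right in each panel, and black lines are medians. Under 75th percentile scaling (left panel) the medians of the control arrays run between −0.61 and 0.76 around the SetD8 arrays, and after normexp and quantile normalization (right panel) all 6 medians lie between −0.09 and 0.07.

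Large and small subunit genes had similar ranges of differences. After quantile normalization the median difference was −0.11 over the 47 large subunit genes and −0.08 over the 29 small subunit genes, with 32 and 18 below 0. The medians were −0.21 and −0.25 under 75th percentile scaling, and within slide 3 they were 0.53 and 0.49, where all genes had a median of 0.38. Both subunits had 0 genes called. No test was made of the difference between the subunits, since the members were chosen with results of these data known.

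Names do not always follow position. Mrps18a and Mrps30 are known to sit in the large subunit of the mammalian mitochondrial ribosome. Counting them there left the medians after quantile normalization at −0.11 over 49 large subunit genes and −0.08 over 27 small subunit genes.

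Proteins with a counterpart in bacterial ribosomes form the conserved core, and those without one were gained by mitochondria. In the large subunit the median after quantile normalization was −0.10 over 30 genes with a bacterial counterpart and −0.14 over 17 genes without. In the small subunit it was −0.05 over 16 genes with a counterpart and −0.08 over 13 genes without. No test was made between these groups of genes.

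**Figure D2:**
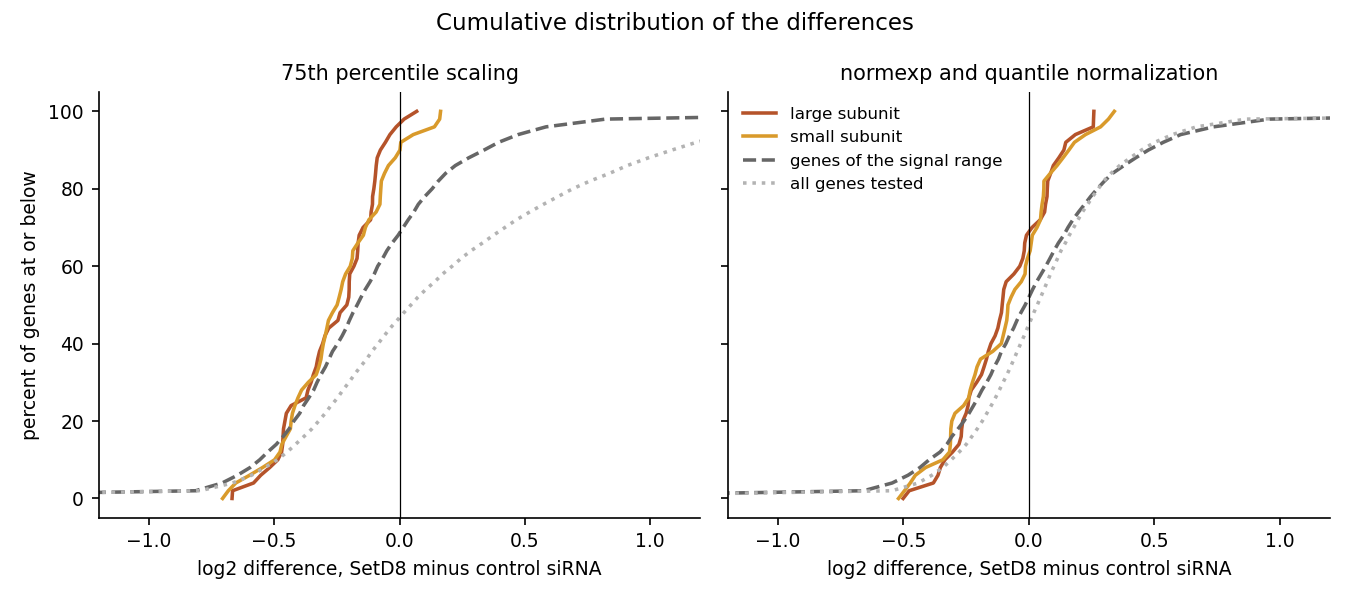
Curves give the percent of genes (vertical axis) at or below each log2 difference, SetD8 minus control siRNA (horizontal axis, shown between −1.2 and 1.2), for the large subunit, the small subunit, genes of the members' signal range and all genes tested. The curves of both subunits run together under either scaling and span a narrower range than the other genes, with medians of −0.21 and −0.25 (left panel) and of −0.11 and −0.08 (right panel). Under 75th percentile scaling the sign of both medians turned within slide 3.

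The groups did not overlap for 31 of 76 members after quantile normalization, 23 with all SetD8 arrays lower and 8 with all SetD8 arrays higher. That is 40.8% of the members, where the groups did not overlap for 23.6% of all genes (9.93% lower and 13.7% higher) and for 45.3% of the signal range (22.7% lower and 22.6% higher). By subunit there were 14 lower and 5 higher in the large, and 9 lower and 3 higher in the small. With 75th percentile scaling 0 of 76 members separated the groups, where 7.62% of all genes and 3.94% of the signal range did.

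**Figure D3:**
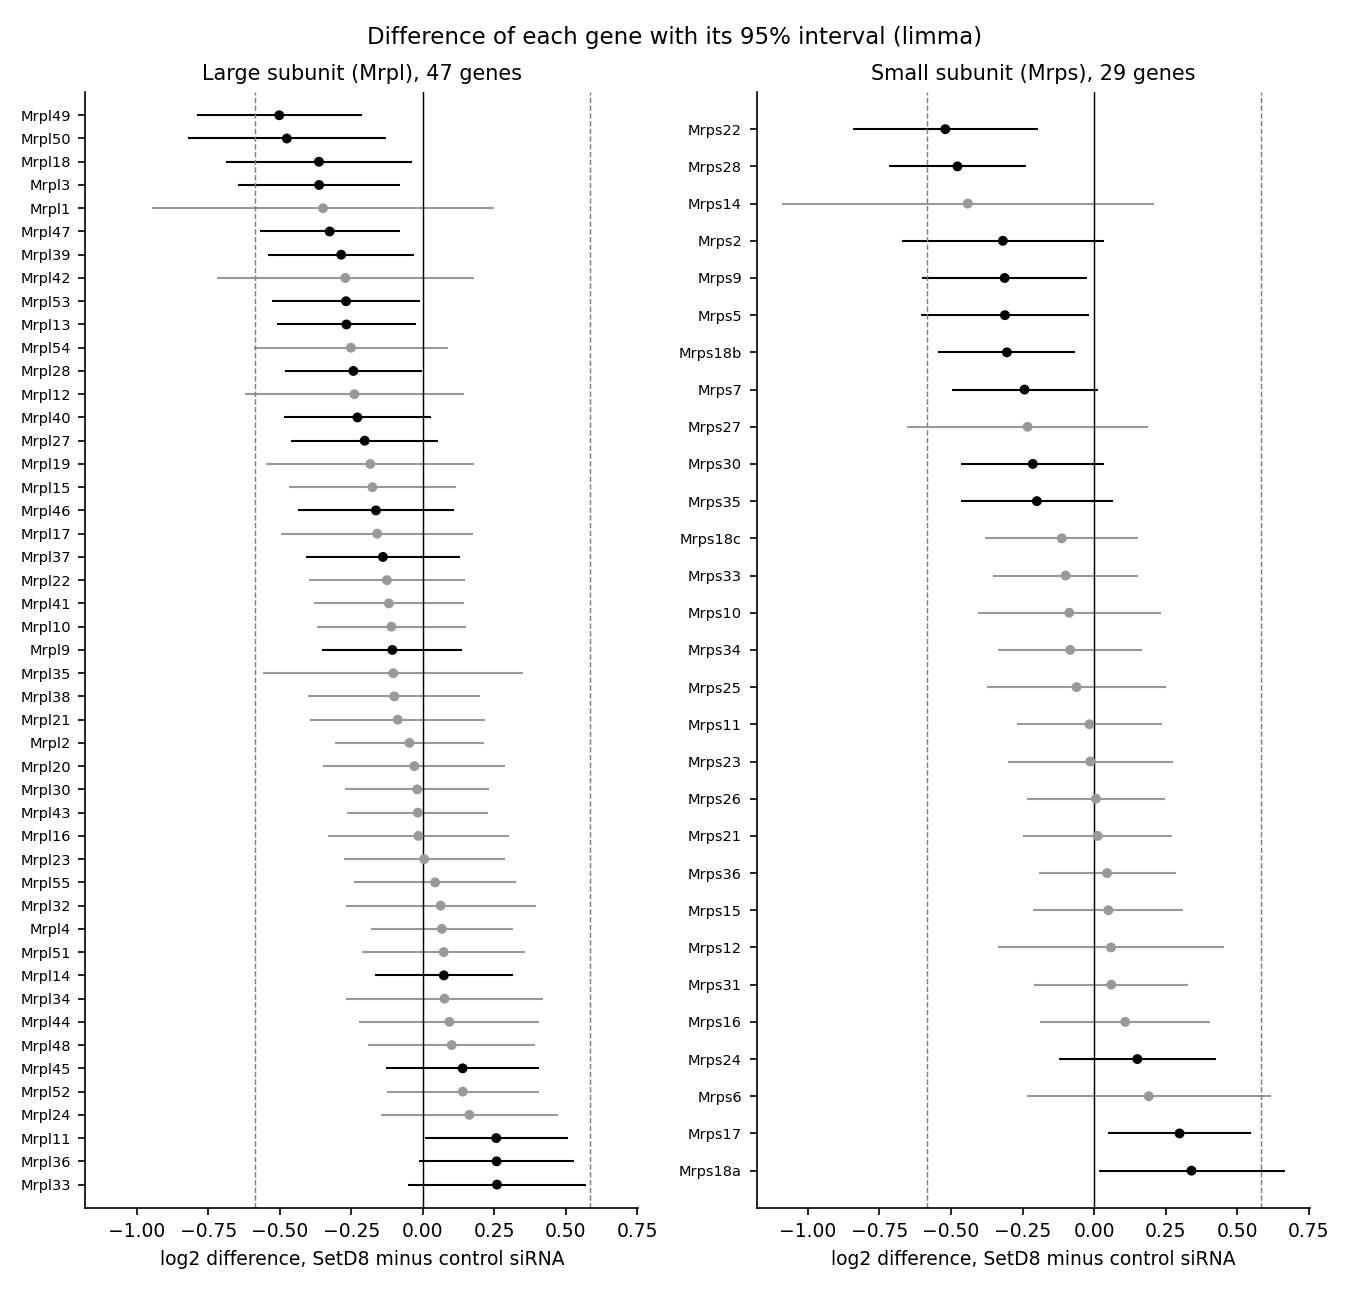
Each row is 1 gene, with its log2 difference (SetD8 minus control siRNA, quantile-normalized, n = 3 each) as a point and the 95% interval of limma's fit as a line, and large subunit genes are left and small subunit genes right. Black rows are genes whose groups did not overlap, grey rows those that did, and dashed lines mark a 1.5-fold difference. The points run between −0.50 and 0.26 in the large subunit and between −0.52 and 0.34 in the small subunit. The intervals of 59 of the 76 genes lie between the dashed lines.

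Among small subunit genes, Mrps22, a subunit specific to mitochondria whose human gene is mutated in respiratory chain disease, had the lowest difference of all members. Its log2 signals were 9.78, 9.53 and 9.70 on the SetD8 arrays, against 10.18, 10.36 and 10.04 on the control arrays. The groups did not overlap, but the difference of −0.52 ± 0.13 did not pass (limma adjusted p = 0.123), and it was −0.52 within slide 1 and −0.34 within slide 3. With 75th percentile scaling the groups overlapped, at −0.71.

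Mrps28, the mitochondrial relative of bacterial S1, had signals of 11.89, 11.82 and 11.87 on the SetD8 arrays, against 12.31, 12.33 and 12.37 on the control arrays. All SetD8 arrays were lower, with little spread in either group, and the difference was −0.48 ± 0.10 (limma adjusted p = 0.0786). When only the 10823 genes detected on all 6 arrays were tested, it was the 1 member called, at a limma adjusted p of 0.0384 for the same difference. The difference was −0.57 under 75th percentile scaling.

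The small subunit genes Mrps2 (−0.32), Mrps9 (−0.31) and Mrps18b (−0.30) had groups that did not overlap, and limma adjusted p-values between 0.201 and 0.369. Mrps14 had the widest interval of the low members, with signals of 9.03, 8.77 and 8.85 on the SetD8 arrays, against 9.17, 9.93 and 8.87 on the control arrays. Control 2 was high and control 3 lay among the SetD8 arrays, so the groups overlapped, and the difference was −0.44 ± 0.27 (limma adjusted p = 0.522).

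At the other end of the small subunit stood Mrps18a and Mrps17. Mrps18a had signals of 11.82, 12.09 and 11.72 on the SetD8 arrays, against 11.47, 11.51 and 11.63 on the control arrays. The groups were adjacent but did not overlap, and the difference of 0.34 ± 0.14 (limma adjusted p = 0.293) was 0.48 within slide 1 and 0.09 within slide 3. Mrps17, a conserved protein that binds ribosomal RNA, had signals of 11.55, 11.46 and 11.50 on the SetD8 arrays, against 11.25, 11.24 and 11.12 on the control arrays. All SetD8 arrays were higher, and the difference was 0.30 ± 0.10 (limma adjusted p = 0.227).

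The 3 proteins named Mrps18 are paralogues with homology to 1 bacterial protein. Only Mrps18c was counted above among the genes with a bacterial counterpart. Their differences lay apart, at 0.34 for Mrps18a, −0.30 for Mrps18b and −0.11 for Mrps18c, and no test was made between them. Mrps30, the other protein named for the small subunit but placed in the large one, stood at −0.21. Mrps12, of the decoding centre, stood at 0.06 and Mrps16, whose human gene is mutated in a mitochondrial disease, at 0.11, both with overlapping groups. Mrps6 (0.19) overlapped between groups and Mrps24 (0.15) did not, both without passing. Mrps36, later assigned to the 2-oxoglutarate dehydrogenase complex and not to the ribosome, stood at 0.05.

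In the large subunit the lowest member was Mrpl49, a protein without a bacterial counterpart. Its signals were 10.54, 10.80 and 10.55 on the SetD8 arrays, against 11.10, 11.19 and 11.09 on the control arrays. The groups did not overlap, and the difference was −0.50 ± 0.12 (limma adjusted p = 0.104). Its second probe gave −0.21.

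Mrpl50, also without a bacterial counterpart, had signals of 9.37, 9.04 and 9.22 on the SetD8 arrays, against 9.78, 9.78 and 9.50 on the control arrays. All SetD8 arrays were lower, with a difference of −0.48 ± 0.14 (limma adjusted p = 0.173), and its 2 probes gave −0.48 and −0.41. Mrpl18 (−0.36), of the part of the subunit that in bacteria holds the smallest ribosomal RNA, and Mrpl3 (−0.36), which reaches toward the catalytic centre, had groups that did not overlap and limma adjusted p-values of 0.255 and 0.198. Mrpl1 (−0.35 ± 0.25), of the mobile stalk beside the exit site, overlapped between groups.

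The highest large subunit members were Mrpl33 (0.26), Mrpl36 (0.26) and Mrpl11 (0.26), none of which passed. Mrpl11, at the base of the stalk that receives translation factors, had signals of 13.69, 13.71 and 13.74 on the SetD8 arrays, against 13.48, 13.37 and 13.52 on the control arrays. The groups did not overlap, and the difference was 0.26 ± 0.10 (limma adjusted p = 0.304), against 0.01 under 75th percentile scaling. Mrpl12, of the stalk itself, lay on the other side at −0.24 ± 0.16 with overlapping groups. Mrpl24 (0.16), Mrpl52 (0.14) and Mrpl44 (0.09), whose human gene is mutated in a cardiomyopathy, also overlapped.

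**Figure D4:**
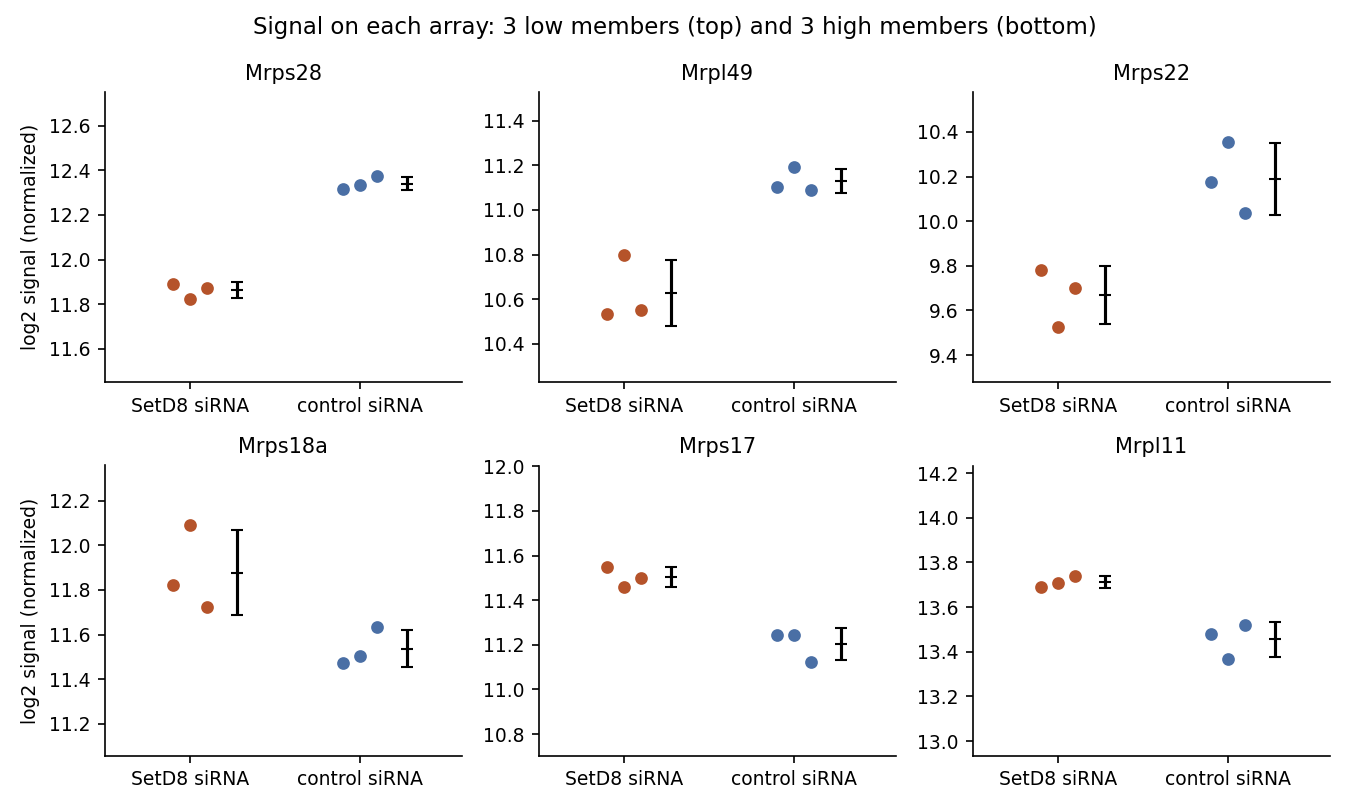
Normalized log2 signal (vertical axis) of 6 members on each array, SetD8 siRNA left and control siRNA right, with bars for mean ± SD (n = 3 each). Panels have different starting values but the same height, and levels are not comparable between genes. In the top row (Mrps28, Mrpl49, Mrps22) all SetD8 points lie below all control points, and in the bottom row (Mrps18a, Mrps17, Mrpl11) all lie above them. None of the 6 passed an adjusted p of 0.05.

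Genes with several probes give a second reading, provided that the probes read the same RNA. Of the members, 24 had more than 1 probe that passed the filter on dim probes, and the median range between the probes of a gene was 0.08. Probes differed in sign for Mrpl23, Mrpl4 and Mrpl47 after quantile normalization, and for Mrpl47 and Mrps36 under 75th percentile scaling. In Mrpl23 (0.00 and −0.06) and Mrpl4 (0.07 and −0.03) both values were close to 0.

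Mrpl47, a conserved protein near the exit of the peptide tunnel, had 4 probes and the widest range, 0.44. The brightest probe, printed above, had signals of 11.24, 11.14 and 11.17 on the SetD8 arrays, against 11.56, 11.49 and 11.48 on the control arrays, a difference of −0.33 ± 0.10 (limma adjusted p = 0.184). The next probe toward the 5′ end gave −0.39, the 3′-most −0.14, and the 5′-most 0.05. That last probe had signals of 7.39, 7.29 and 7.21 on the SetD8 arrays, against 7.32, 7.55 and 6.87 on the control arrays, and the groups overlapped. The 3′-most probe of Mrpl47 was dimmer, at 6.56, 6.60 and 6.58 on the SetD8 arrays, against 6.60, 7.04 and 6.52 on the control arrays. Mrps14 had 3 probes, of which 2 gave −0.44 and 1 gave −0.01. The −0.01 probe was dim, at 7.17, 6.96 and 6.93 on the SetD8 arrays, against 7.06, 7.41 and 6.61 on the control arrays. So was 1 of the others, at 7.23, 7.04 and 7.19 on the SetD8 arrays, against 7.76, 8.02 and 7.02 on the control arrays. The reference lists pseudogene copies of Mrpl23, Mrpl27, Mrpl48 and Mrps36 that could share signal with them, which makes the values of these genes uncertain. The probes of Mrpl30 are placed on chromosome 11 (−0.017) and on chromosome 1 (−0.019, the brighter), and whether both read the same RNA was not tested.

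**Figure D5:**
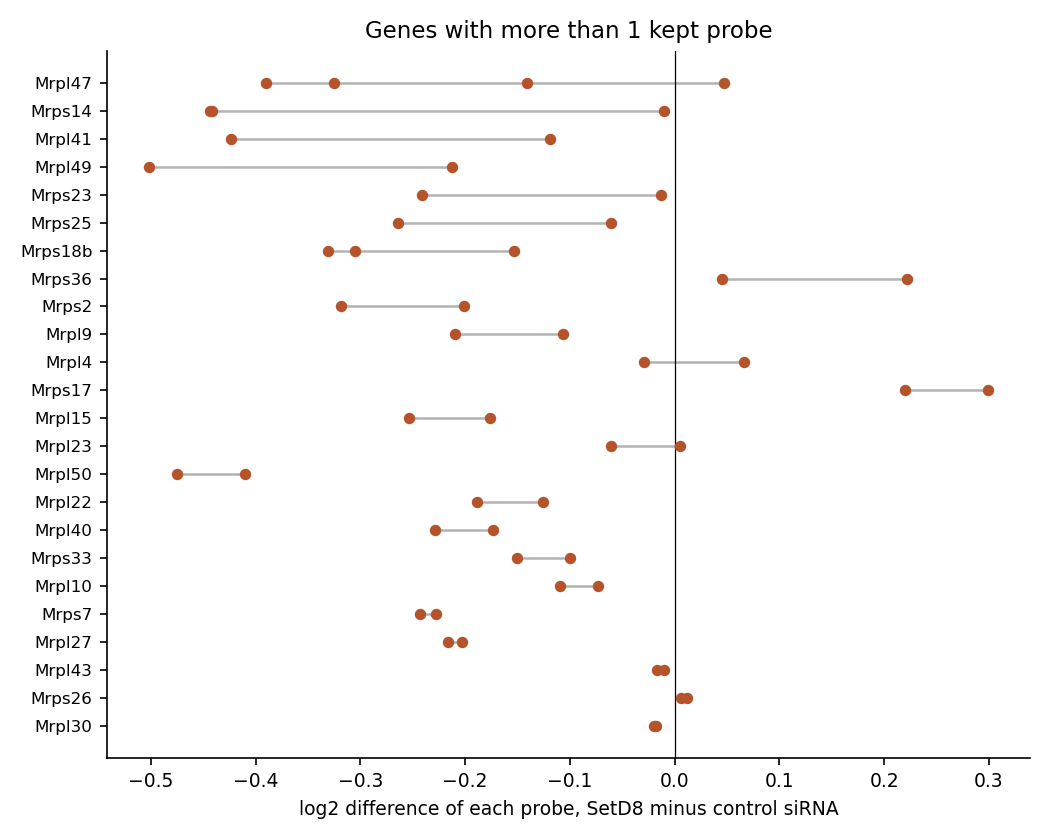
Each row is 1 of the 24 members with more than 1 kept probe, each point is the log2 difference of 1 probe (SetD8 minus control siRNA, quantile-normalized, n = 3 each), and a grey line joins the probes of a gene. Probes of a gene lie within 0.2 of each other except in 6 genes. Mrpl47, at the top, spans −0.39 to 0.05.

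Promoter letters were matched for 67 of the 76 members, and each window was searched on both strands for 6 short motifs. CCGGAAG (ETS) was found in 24 of 67 members, 35.8%, against 28.7% of the signal range, 18.0% of all genes tested and 9.93% of all 27025 promoters. ATGGCGG (YY1) was found in 13 members, 19.4%, against 13.1% of the signal range, 8.32% of all genes tested and 4.69% of all promoters. GCATGCGC (NRF1) was found in 8 members, 11.9%, against 7.07% of the signal range, 5.24% of all genes tested and 3.05% of all promoters. For these 3 motifs the members' share was nearer to that of genes with a like signal than to that of all promoters. None of the 6 motifs contains another.

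The motif AGATAA, bound by GATA factors, was found in 16.4% of members, against 7.47% of the signal range, 9.39% of all genes tested and 12.7% of all promoters. CACGTG (E-box) was found in 7.46% of members, against 13.1% of the signal range and 8.09% of all promoters. TATAAA was found in 7.46% of members, against 7.17% of the signal range and 15.7% of all promoters. The median difference after quantile normalization was −0.20 over the 13 members with a YY1 match, 12 of them below 0, and −0.02 over the 54 members without one, 30 of them below 0. With an ETS match it was −0.05 and without one −0.09. For TATAAA it was 0.10 over the 5 members with a match and −0.09 over the 62 without. For NRF1 it was −0.12 over 8 members with a match and −0.05 over 59 without. With and without a match it was −0.02 and −0.09 for GATA, and −0.05 and −0.09 for the E-box. None of these medians was tested, and the motifs were searched with results of these data known.

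Members often start beside another gene read the other way. A coding neighbour on the opposite strand started within 1000 bases for 24 of 67 members, 35.8%, against 17.8% of the signal range and 12.6% of all genes tested (gene starts of the reference, GRCm38.p6). The share was 41.5% in the large subunit and 26.9% in the small. Mrpl46 (−0.16) and Mrps11 (−0.02) start 42 bases apart, a large and a small subunit gene read in opposite directions.

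The signs of the neighbours and the members matched in 12 of 23 pairs, and the share among pairs of other genes was not computed. The pair of Mrpl46 and Mrps11 was counted once. After quantile normalization 0 neighbours passed an adjusted p of 0.05, the lowest limma adjusted p being 0.0741 for Tmem63b beside Mrpl14. Mrpl18 (−0.36) was paired with the chaperonin gene Tcp1 (−0.55), and Mrps12 (0.06) with Sars2 (0.07), the mitochondrial seryl-tRNA synthetase. Mrpl49 (−0.50) was paired with Fau (0.12), which encodes a cytosolic ribosomal protein.

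No gene of the wider mitochondrial translation pathway passed either. Of the mitochondrial translation factors 16 were tested and 0 were called (3 at an unadjusted p under 0.05 in limma, all higher), with a median difference after quantile normalization of −0.04, against 0.03 over all genes. Oxa1l, which inserts newly made proteins into the inner membrane, had signals of 12.19, 12.37 and 12.21 on the SetD8 arrays, against 11.68, 11.65 and 11.76 on the control arrays. The groups did not overlap, and the difference was 0.56 ± 0.11 (limma adjusted p = 0.0659), larger than that of any member. Slirp, which stabilises mitochondrial messenger RNA, stood at 0.48 (limma adjusted p = 0.164).

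Of the ribosome assembly and ribosomal RNA modification genes 20 were tested and 0 called (1 higher and 1 lower at an unadjusted p under 0.05 in limma), with a median of −0.08. The higher was Rbfa, which matures the small subunit, at 0.58 (limma adjusted p = 0.126). The lower was Mrm3, at −0.36 (limma adjusted p = 0.221). The 5 ribosomal proteins whose names fall outside the Mrpl and Mrps rule had a median of −0.04, from Ptcd3 at −0.32 to 0.16. The 16 mitochondrial aminoacyl-tRNA synthetases had a median of −0.01, with Fars2 at 0.40, Tars2 at −0.38 and Yars2 at −0.47.

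The 12 genes of mitochondrial DNA maintenance and transcription had a median of −0.11, with the packaging factor Tfam at −0.38 and the single-strand binding protein Ssbp1 at −0.34. Of the nuclear regulators 8 were tested, with a median of −0.27. Nrf1 (−0.38), Gabpa (−0.41) and Atf5 (−0.45) were lower on all SetD8 arrays after quantile normalization. Higher on all SetD8 arrays were Esrra, a nuclear receptor that acts on genes of energy metabolism, at 0.60 (limma adjusted p = 0.229) and Gabpb1, the partner of Gabpa, at 0.58 (limma adjusted p = 0.140). None was called (2 higher and 3 lower at an unadjusted p under 0.05 in limma), and Yy1 (−0.16), Myc (−0.41) and Pprc1 (−0.16) overlapped between groups. So the groups did not overlap for 5 of the 8 regulators, where they did not for 23.6% of all genes and 45.3% of the signal range. With 75th percentile scaling they did not overlap for 1 of the 8, where that held for 7.62% of all genes and 3.94% of the signal range.

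Cytosolic ribosomal proteins served as a second ribosome for comparison. Of 83 tested 0 were called (1 at an unadjusted p under 0.05 in limma), and their median difference was 0.01 after quantile normalization and −0.19 under 75th percentile scaling, against −0.10 and −0.24 for the mitochondrial set. Below 0 were 35 of 83 cytosolic and 50 of 76 mitochondrial genes after quantile normalization, and no test was made between the sets. The sets were not matched for signal level. On SetD8 1 the cytosolic genes Rpl10 and Rpl14 stood at 17.5 and 17.8, against 15.3 for Mrpl33, the brightest member there. The name pattern also took in Rpl10l, at 7.2 on that array. The part of the signal level in this comparison was not tested. Among the marker lists, the megakaryocyte gene Gp1ba rose by 0.79 after quantile normalization (limma adjusted p = 0.0469), 1 of 6 megakaryocyte markers tested. That call was lost under 75th percentile scaling (0.70, limma adjusted p = 0.950), with the slide as a block (limma adjusted p = 0.114) and with the replicate number as a block (limma adjusted p = 0.155). Over the alternatives run after quantile normalization its limma adjusted p ran from 0.0207 to 0.260. The median of these 6 stood at 0.02, 0.10 and 0.33 on the SetD8 arrays, against −0.27, −0.55 and 0.19 on the control arrays, as log2 deviations from each gene's mean, so the groups overlapped, and Ppbp was not well above background. Of the erythroid markers 0 of 10 passed, with 1 higher and 1 lower at an unadjusted p under 0.05 in limma. The higher was the globin gene Hbb-bt, at 1.198 after quantile normalization with overlapping groups (limma adjusted p = 0.304). The lower was Slc4a1, at −1.189 and lower on all SetD8 arrays (limma adjusted p = 0.194). Hba-a1 had the same quantile-normalized signal, 18.283, on all 6 arrays, so no difference could be read for it there. The granulocyte and macrophage markers tested had 0 called and a median of 0.15, and Csf1r, the receptor of a macrophage growth factor, was higher on all SetD8 arrays at 0.97 (limma adjusted p = 0.251). The mast cell (3 of 6 tested, median 0.08), lymphoid (3 of 6, median −0.17) and stromal and endothelial markers (4 of 6, median 0.46) also had 0 called. The part of such markers in the members' values was not tested.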

How the data were processed

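Total RNA of 6 samples was hybridised to 1-colour Agilent arrays. Per the file headers, the deposited intensity of each spot came from version 10.7.3.1 of Agilent's Feature Extraction software, and the submitters' processing notes name limma. The series' deposited value table equals the processed signal of the scanner files within 0.006 for 100% of rows, so its scale is linear, uncentred intensity. Here control spots and outlier spots were left out and spots of a probe were averaged. Probes needed detection on every array of 1 group or both, and a gene was represented by its brightest kept probe. Values were log2 processed signal minus the array's 75th percentile, or normexp (offset 50) with quantile normalization, fitted with limma 3.58.1 (R 4.3.3), all 6 arrays, threshold 0.05. Summaries used Python 3.11.15.

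Probes were named through the RefSeq table (GRCm38.p6): 26858 by accession, 3756 by symbol and 623 by synonym, leaving 24444 unnamed. Named members are the 5 lowest and 5 highest of each subunit, those whose probes differ in sign, and preset names; other genes named are the smallest p-values of each list, and neighbours and regulators mentioned beside them were picked after their values were seen. The members and lists were chosen with earlier results of these data known. The fits were tested on simulated data. Alternatives covered scaling, filters, probe choice, slide, replicate number and leaving out each array.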

Additional observations from a re-analysis of the deposited data

How the results depend on the processing

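The count of members called, 0 higher and 0 lower under both scalings, held under every alternative run except 1. After quantile normalization with genes detected on all 6 arrays only, 1 member was lower, Mrps28 (−0.48, limma adjusted p = 0.0384), and over that result's other alternatives the lowest limma adjusted p of any member ran from 0.0829 to 0.328. Over all genes, quantile normalization called 211 higher and 34 lower, against 437 and 158 with that filter, 115 and 9 with a normexp offset of 16, 13 and 1 with the slide as a block, and 0 to 176 and 0 to 36 when 1 array was left out; 75th percentile scaling called 0 and 0, against 96 and 9 with that filter, 118 and 12 with the slide as a block, 132 and 9 without control 2, 121 and 10 with the percentile taken over detected probes, 38 and 1 with normexp first, and 43 and 2 with quantile normalization but no normexp. For the medians under 75th percentile scaling, the slide as a block gave 0.035 for all members and 0.048 for the large subunit, within slide 3 gave 0.52, 0.53 and 0.49 (all, large, small), and median scaling gave −0.74, −0.71 and −0.75. Leaving out 1 array gave −0.59 to 0.070 for all members, −0.58 to 0.076 for the large and −0.60 to 0.059 for the small subunit, positive without control 2. After quantile normalization it gave −0.11 to −0.059, −0.14 to −0.061 and −0.092 to −0.041, closest to 0 without SetD8 3, within slide 1 all members stood at −0.053, and within slide 3 the small subunit stood at −0.12. Median scaling moved the median of all genes to −0.45 and the percentile over detected probes moved it to 0.17. Both subtract 1 constant per array, so the members' median relative to all genes, −0.28, is fixed under them. Under 75th percentile scaling it was −0.011 with the slide as a block, 0.0068 without control 2, 0.14 within slide 3 and −0.14 with genes detected on all 6 arrays, and it was −0.13 after quantile normalization. Same-numbered arrays did not deviate together (correlations of −0.37 to 0.23 under 75th percentile scaling and −0.25 to 0.19 after quantile normalization), and not every sample correlated best with its own number. With the replicate number as a block the members' medians were −0.24 under 75th percentile scaling and −0.10 after quantile normalization, 0 members were called, and the calls over all genes after quantile normalization were 0 higher and 0 lower. Named members were described after quantile normalization, and none of those whose sign turned was called. With the 75th percentile these were Mrpl23 −0.20, Mrpl24 −0.098, Mrpl33 −0.018, Mrpl4 −0.20, Mrpl44 −0.045, Mrpl52 −0.095, Mrps12 −0.14, Mrps16 −0.079 and Mrps36 −0.076, and the same 9 values came from the deposited value table. With median scaling, which moves the difference of every gene by the same amount and put all 76 members below 0, they were Mrpl11 −0.49, Mrpl23 −0.70, Mrpl24 −0.60, Mrpl33 −0.52, Mrpl36 −0.43, Mrpl4 −0.70, Mrpl44 −0.54, Mrpl52 −0.59, Mrps12 −0.64, Mrps16 −0.58, Mrps17 −0.34, Mrps18a −0.34, Mrps24 −0.50, Mrps36 −0.58 and Mrps6 −0.49. With normexp before the 75th percentile they were Mrpl11 −0.012, Mrpl23 −0.26, Mrpl24 −0.10, Mrpl33 −0.016, Mrpl4 −0.19, Mrpl44 −0.059, Mrpl52 −0.11, Mrps12 −0.17, Mrps16 −0.12, Mrps24 −0.017 and Mrps36 −0.19, and with the percentile over detected probes Mrpl23 −0.074, Mrpl4 −0.072 and Mrps12 −0.017. After quantile normalization, within slide 3 they were Mrpl1 0.14, Mrpl23 −0.12, Mrpl52 −0.0073, Mrps12 −0.13, Mrps18c 0.011 and Mrps36 −0.0040. With the mean of a gene's probes, also after quantile normalization, Mrpl23 stood at −0.028. Leaving out 1 array after quantile normalization moved Mrpl23 over −0.066 to 0.075 and Mrps12 over −0.077 to 0.20. The cause of these changes was not tested. Signal over background limits 2 member probes, which were not detected on all arrays of either group, and control 2 had the fewest detected spots.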
